A study of Mus musculus with 9 samples.

Results

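The prohormone convertases and peptide processing enzymes are 8 genes given by name, Pcsk1, Pcsk2, Furin, Pcsk6, Pcsk1n, Cpe, Cpd and Pam, and each matched 1 row of the 25611 rows in the deposited table of counts per gene. RNA sequencing was done on pancreatic islets from mice aged 4 weeks, in 3 libraries labelled KO (genotype Pdx1-Cre;Glis3fl/fl, numbered 1 to 3) and 4 labelled WT (Glis3fl/fl without the driver, numbered 1 to 4), from separate mice per the labels' design text. Both groups carry the conditional allele of Glis3, which encodes a zinc finger transcription factor of the pancreas, and the KO genotype adds Cre recombinase under the promoter of Pdx1, which is active in the progenitors of endocrine, acinar and duct cells. No group carried the driver alone, so effects of the driver and of the deletion cannot be told apart. Binding of Glis3 was mapped with an antibody against GFP in islets from Glis3-eGFP mice aged 8 weeks, as 1 list of 21254 peaks of 200 bp with no replicate.

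Most peptide hormones are made as longer precursors. Inside the secretory granule, proprotein convertases cut them after pairs of basic residues, a carboxypeptidase trims the exposed basic residues, and an amidating enzyme converts a C-terminal glycine of some peptides to an amide. In beta cells Pcsk1 (PC1/3) and Pcsk2 (PC2) release insulin from proinsulin, and in alpha cells Pcsk2 releases glucagon from proglucagon. Furin, Pcsk6 (PACE4) and Cpd (carboxypeptidase D) belong mainly to the constitutive pathway, where precursors of receptors and growth factors are cut.

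In the libraries labelled KO, both granule convertase genes, the granule carboxypeptidase gene and the amidating enzyme gene were higher, and so was Pcsk6 of the constitutive pathway. Pcsk1, Pcsk2, Pcsk6, Cpe and Pam were called higher, none of the 8 was called lower, and Furin, Cpd and Pcsk1n did not pass (edgeR quasi-likelihood test, Benjamini-Hochberg adjusted p under 0.05 over all 14529 tested genes). All 8 passed the filter on low counts. Across all tested genes 8.73% were called higher and 14.0% were called in either direction, against 62.5% of the members. For each of the 5 called members the groups did not overlap in CPM, which held for 26.6% of all tested genes, 14.0% with the libraries labelled KO above WT and 12.6% with them below. The median log2 fold change of the 8 was 0.75, beside 0.01 over all tested genes. In bulk islets, fewer cells of a type and less RNA per cell cannot be told apart.

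Library totals ran from 12099365 to 22578480 counts in the libraries labelled KO and from 18297697 to 48054551 in WT. The labels were checked against the targeted gene. Glis3 stood at 52.05, 52.74 and 57.75 CPM (counts scaled to 1000000 per library, with TMM normalisation) in labelled KO 1 to 3 and at 39.53, 46.77, 31.23 and 33.55 CPM in WT 1 to 4, so it was higher, not lower, in the libraries labelled KO, with no overlap (log2 0.52, SE 0.14, edgeR adjusted p = 0.0257). That call was lost with the replicate block (0.0505), with the acinar covariate (0.102) and without labelled KO 1 (0.0501), labelled KO 3 (0.117), WT 3 (0.0945) or WT 4 (0.085), over a range of adjusted p of 0.00948 to 0.117. Because reads were summed over all exons, deleted ones included, these values leave the deletion itself unchecked. The summed level of 8 beta cell markers, insulin included, was 189000 to 299300 CPM in the libraries labelled KO and 329300 to 550300 CPM in WT, with 5 lower and 1 higher, and the part of beta cell content in the results was not tested. For 7 alpha cell markers the sums were 46140 to 49820 CPM and 37320 to 75960 CPM in the same order of groups, with 2 higher and 3 lower. The 2 gamma cell markers summed to 1918 to 2561 CPM in the libraries labelled KO and 7843 to 14330 CPM in WT, both lower, and the 6 B and T cell markers to 1.337 to 5.011 CPM and 14.76 to 21.35 CPM in the same order of groups, with the 1 tested lower. Only 1 of the 6 B and T cell markers was tested, so their sum does not show a fall across them. The parts of gamma, B and T cells in the results were not tested. The 14 acinar markers summed to 2274 to 12690 CPM in the libraries labelled KO and 735 to 4564 CPM in WT, with none of the 12 tested called and Amy2a5 at 0 in every library. With the acinar marker level as a covariate the same 5 members were called. The 7 duct markers summed to 772.7 to 957.1 CPM in the libraries labelled KO and 254.9 to 312.2 CPM in WT. Only 1 of the 6 tested was called, as higher, so the sum does not show a rise across the duct markers. The part of duct cells in the results was not tested. Reads of Xist, which is transcribed from the inactive X chromosome of females, were present in labelled KO 1 and 2 (262.1 and 234.6 CPM) and in WT 1 and 2 (270 and 241.3 CPM) and near 0 in the other 3 libraries, so both groups were mixed. The same 5 members were called with Xist as a covariate, an alternative chosen after the data were seen.

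The promoter windows of 4 members are shown to set Pcsk1 beside Pam, Pcsk1n and Cpd. Pcsk1 had the largest fold change of the 8 and no peak within 50 kb of its 5′ end. Pam had the next largest fold change and a peak at its start. Pcsk1n and Cpd had a peak at the start and were not called. For Pam the second of its 2 windows is shown. Each window runs from 250 bases before to 50 bases after a RefSeq start (build GRCm38.p6, the assembly also called mm10), 5′ to 3′ on the strand of the gene. In Pcsk1 the capitals mark the letters TGACGTC and its reverse complement, the core of the cAMP response element. In the other windows the capitals mark the bases that lie under a Glis3 peak.
Pcsk1: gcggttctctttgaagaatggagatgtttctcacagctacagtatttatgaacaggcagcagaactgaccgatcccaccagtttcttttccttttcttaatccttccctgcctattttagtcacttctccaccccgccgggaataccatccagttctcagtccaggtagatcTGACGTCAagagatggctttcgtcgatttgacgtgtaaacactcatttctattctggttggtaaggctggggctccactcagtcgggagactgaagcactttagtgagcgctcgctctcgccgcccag
Pam: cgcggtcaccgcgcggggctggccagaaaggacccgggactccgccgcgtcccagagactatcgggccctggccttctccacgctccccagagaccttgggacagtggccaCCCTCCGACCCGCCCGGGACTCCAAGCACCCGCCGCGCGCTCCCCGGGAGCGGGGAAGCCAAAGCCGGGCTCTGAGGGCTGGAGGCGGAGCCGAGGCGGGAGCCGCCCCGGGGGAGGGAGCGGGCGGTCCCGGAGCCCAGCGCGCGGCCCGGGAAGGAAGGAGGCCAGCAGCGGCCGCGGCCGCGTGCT
Pcsk1n: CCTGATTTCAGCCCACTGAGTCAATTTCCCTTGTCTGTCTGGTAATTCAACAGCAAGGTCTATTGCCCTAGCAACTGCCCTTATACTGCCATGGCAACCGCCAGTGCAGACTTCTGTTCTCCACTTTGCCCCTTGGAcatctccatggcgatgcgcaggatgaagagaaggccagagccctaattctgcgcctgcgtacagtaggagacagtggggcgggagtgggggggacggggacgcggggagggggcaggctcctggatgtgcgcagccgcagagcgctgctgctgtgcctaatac
Cpd: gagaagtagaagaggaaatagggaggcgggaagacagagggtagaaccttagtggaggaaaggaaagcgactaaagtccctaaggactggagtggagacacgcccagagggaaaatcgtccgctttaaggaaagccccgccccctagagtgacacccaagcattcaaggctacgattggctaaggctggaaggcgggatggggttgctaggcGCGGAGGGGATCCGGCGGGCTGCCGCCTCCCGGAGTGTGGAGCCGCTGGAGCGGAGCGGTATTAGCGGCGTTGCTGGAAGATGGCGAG
The windows are chr13:75089607-75089906 (plus strand) for Pcsk1, chr1:98095583-98095882 (minus strand) for Pam, chrX:7919572-7919871 (plus strand) for Pcsk1n and chr11:76846959-76847258 (minus strand) for Cpd. The RefSeq start of Pcsk1 (chr13:75089857) lies upstream of the 5′ end of its gene span (chr13:75089987), from which its peak distances run. Of the 300 bases, 189 lay under a peak in Pam, 137 in Pcsk1n and 88 in Cpd, and none in Pcsk1. The GC content was 49.3% in the Pcsk1 window, 77.3% in Pam, 58.7% in Pcsk1n and 59.7% in Cpd, against a median of 52.7% over 32851 windows of the RefSeq table.

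Pcsk1, the convertase that makes the first cut in proinsulin, changed most. It lies at chr13:75089987-75132498 on the plus strand (mm10). Its level was 600.8, 557.4 and 646.4 CPM in labelled KO 1 to 3, against 212.9, 225.5, 217.1 and 213.9 CPM in WT 1 to 4. The 4 WT values were close to each other, and every library labelled KO was above all of them. The means were 601.5 ± 44.5 CPM (SD, n = 3) in the libraries labelled KO and 217.3 ± 5.75 CPM (SD, n = 4) in WT, a log2 fold change of 1.47 (SE 0.11, 95% interval 1.22 to 1.71, edgeR adjusted p = 1.85e-06). By p-value Pcsk1 ranked 48 among the 14529 tested genes.

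Pcsk2, the convertase that completes proinsulin cleavage in beta cells and processes proglucagon in alpha cells, also rose. It spans chr2:143546133-143816282 on the plus strand. The values were 5756, 5992 and 5722 CPM in labelled KO 1 to 3, against 3407, 3187, 3605 and 3610 CPM in WT 1 to 4, with no overlap. The log2 fold change was 0.75 (SE 0.12, 95% interval 0.50 to 1.0, edgeR adjusted p = 0.000601). Libraries of each group were close to each other, with a coefficient of variation of 2.52% in those labelled KO and 5.81% in WT.

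**Figure D1:**
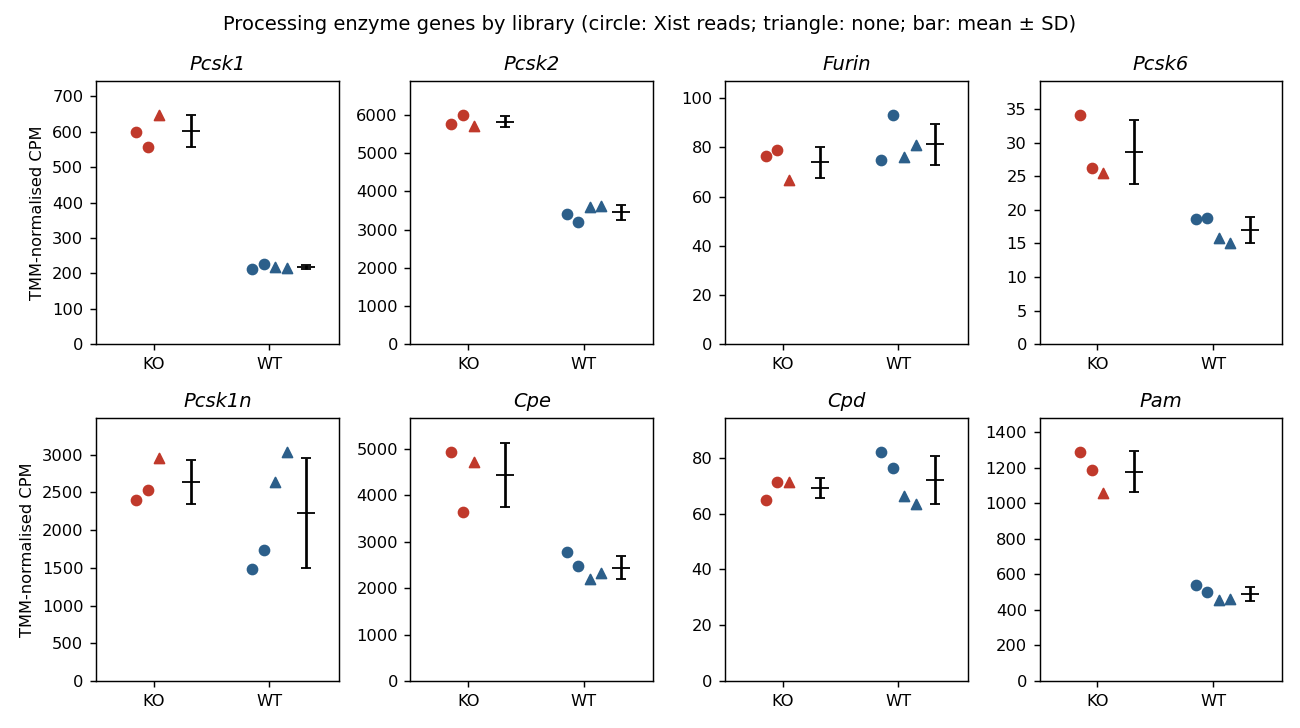
TMM-normalised CPM (y axis) of the 8 members in each library, with libraries labelled KO left of WT. Circles are libraries with Xist reads, triangles those without, and bars are mean ± SD (n = 3 and n = 4). Pcsk1, Pcsk2, Pcsk6, Cpe and Pam show no overlap between groups, while Furin, Pcsk1n and Cpd overlap.

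Furin, the convertase of the trans-Golgi network, stood at 76.33, 78.88 and 66.92 CPM in labelled KO 1 to 3 and at 74.68, 93, 76.28 and 80.88 CPM in WT 1 to 4 (chr7:80389194-80405436, minus strand). The groups overlapped, and the log2 fold change was −0.13 (SE 0.12, 95% interval −0.39 to 0.12, edgeR adjusted p = 0.508), with the sign reversed when libraries were scaled by size alone (0.036). The interval bounds the difference but does not show that the levels were equal.

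Pcsk6, a secreted convertase that acts on growth factor precursors, was the member with the fewest counts, from 259 to 969 per library. Its level was 34.08, 26.26 and 25.51 CPM in labelled KO 1 to 3, against 18.6, 18.85, 15.77 and 15.08 CPM in WT 1 to 4 (chr7:65862136-66050386, plus strand). Labelled KO 1 was highest, and the lowest library labelled KO was above the highest WT library. The log2 fold change was 0.74 (SE 0.16, 95% interval 0.40 to 1.08, edgeR adjusted p = 0.00625).

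The further convertase genes described here, Pcsk4, Mbtps1, Pcsk7 and Pcsk5, did not pass the test. Pcsk4, a convertase of germ cells, had 30.5 ± 5.39 CPM in the libraries labelled KO and 34.1 ± 3.56 CPM in WT (log2 −0.17, edgeR adjusted p = 0.499). Mbtps1 (site-1 protease, which activates membrane-bound transcription factors in the Golgi) had 119.8 ± 8.87 CPM and 112.1 ± 5.47 CPM in the same order of groups (log2 0.10, edgeR adjusted p = 0.627). Pcsk7 (log2 0.15, edgeR adjusted p = 0.678) and Pcsk5 (log2 0.30, edgeR adjusted p = 0.831), convertases of the secretory pathway, changed sign without labelled KO 2 (log2 −0.0089 and −0.26), and Pcsk5 averaged only 1.36 ± 0.833 CPM in the libraries labelled KO and 1.146 ± 1.032 CPM in WT.

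Pcsk1n encodes proSAAS, a granule protein with a peptide that inhibits PC1/3, and lies on the X chromosome (chrX:7919822-7924410, plus strand). It stood at 2404, 2539 and 2961 CPM in labelled KO 1 to 3 and at 1484, 1742, 2636 and 3036 CPM in WT 1 to 4. The WT libraries split into 2 with lower values (WT 1 and WT 2) and 2 with higher ones, and the coefficient of variation was 11% in the libraries labelled KO and 32.9% in WT. The log2 fold change was 0.24 (SE 0.21, 95% interval −0.22 to 0.71, edgeR adjusted p = 0.504). With the replicate number as a block it was 0.47 (SE 0.13, edgeR adjusted p = 0.0283), and scaled by library size alone it was 0.45 (edgeR adjusted p = 0.031). Number 4 occurs only in WT, so in the block fit WT 4, the highest WT library, did not bear on the group difference. Without WT 4 and with no block the log2 fold change was 0.42 (edgeR adjusted p = 0.184).

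The split of Pcsk1n in WT ran with other measures. WT 1 and WT 2 had Xist reads and WT 3 and WT 4 had not. The beta cell marker sum was 367100 and 329300 CPM in WT 1 and WT 2 and 467700 and 550300 CPM in WT 3 and WT 4. Among libraries with Xist reads the log2 fold change of Pcsk1n was 0.62 (2 labelled KO, 2 WT), and among those without it was 0.06 (1 labelled KO, 2 WT). With 1 library labelled KO among those without Xist reads, these values are a description, and this split was chosen after the data were seen. The log2 difference between the 2 sets of libraries was 0.55, and the cause of the split in Pcsk1n was not tested.

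Scg5 encodes 7B2, the chaperone that proPC2 needs to mature. It was at 1308, 1068 and 1347 CPM in labelled KO 1 to 3, against 685.2, 621.6, 733.3 and 830.3 CPM in WT 1 to 4, and rose by log2 0.79 (SE 0.14, edgeR adjusted p = 0.00139). Of 12 helper and further maturation genes 11 were tested, with 4 higher, 1 lower and 6 not passing and a median log2 fold change of 0.28. The share called was 45.5%, against 14.0% of all tested genes. Ctsl, the cathepsin L gene, whose enzyme also cuts neuropeptide precursors, rose to 308.4 ± 32.9 CPM in the libraries labelled KO, against 134.9 ± 13.4 CPM in WT (log2 1.19, SE 0.13, edgeR adjusted p = 2.71e-05). The oxidase genes of disulfide formation went opposite ways, with Ero1l higher (log2 0.64, edgeR adjusted p = 0.00406) and Ero1lb, the form enriched in islets, lower (log2 −0.61, edgeR adjusted p = 0.0159). Tpst1, a tyrosine sulfotransferase gene, rose (log2 0.47, edgeR adjusted p = 0.0214). The call of Ero1lb was lost without labelled KO 1 (0.0885), labelled KO 2 (0.0504) or WT 3 (0.0516) and with the acinar covariate (0.0752), and that of Tpst1 without labelled KO 1 (0.0776), labelled KO 3 (0.0524), WT 2 (0.0744) or WT 3 (0.0672), all edgeR adjusted p. The range of adjusted p over all alternatives, here and in what follows with DESeq2 and limma-voom included, was 0.000463 to 0.0885 for Ero1lb and 0.00803 to 0.0776 for Tpst1.

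Cpe, carboxypeptidase E, removes the basic residues that the convertases leave in insulin and most granule peptides. It stood at 4931, 3648 and 4717 CPM in labelled KO 1 to 3, against 2780, 2471, 2192 and 2325 CPM in WT 1 to 4 (chr8:64592551-64693109, minus strand). Labelled KO 2 was lowest of its group and still above every WT library. The log2 fold change was 0.86 (SE 0.14, 95% interval 0.56 to 1.16, edgeR adjusted p = 0.000887). Cpd, the related carboxypeptidase of the trans-Golgi network, overlapped between groups, with 65.04, 71.4 and 71.39 CPM in labelled KO 1 to 3 and 82.1, 76.41, 66.48 and 63.32 CPM in WT 1 to 4 (chr11:76777208-76847008, minus strand). Its log2 fold change was −0.06 (SE 0.12, 95% interval −0.32 to 0.20, edgeR adjusted p = 0.806), and it was positive under scaling by library size alone (0.10) and without WT 1 (0.012).

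Of 9 further carboxypeptidases and relatives 7 were tested, 1 rose and 6 did not pass, with a median log2 fold change of −0.18. The share called was 14.3%, close to the 14.0% of all tested genes. Cpn1 was the one that rose. It encodes the catalytic subunit of carboxypeptidase N, known as a plasma enzyme made in liver. Its level was 365, 312.5 and 298.1 CPM in labelled KO 1 to 3, against 104.4, 100.1, 119.1 and 113.8 CPM in WT 1 to 4 (log2 1.57, SE 0.12, 95% interval 1.31 to 1.84, edgeR adjusted p = 2.06e-06). Cpn2, which encodes the other subunit of that enzyme, had no count in any of the 7 libraries.

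Pam, which encodes the copper and ascorbate dependent peptidylglycine amidating enzyme, had the second largest change of the 8 members. It spans chr1:97821094-98095646 on the minus strand. The values were 1288, 1185 and 1057 CPM in labelled KO 1 to 3, against 540.7, 500.9, 457.1 and 459.2 CPM in WT 1 to 4. Every library labelled KO was above every WT library. The log2 fold change was 1.27 (SE 0.12, 95% interval 1.0 to 1.53, edgeR adjusted p = 1.22e-05).

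Of 10 genes that supply copper and ascorbate, all tested, 2 rose, 1 fell and 7 did not pass, with a median log2 fold change of 0.32. The share called was 30%, against 14.0% of all tested genes. Atox1, a cytosolic copper chaperone gene, stood at 65.56, 71.19 and 69.89 CPM in labelled KO 1 to 3, against 29.02, 31.8, 35.43 and 44.75 CPM in WT 1 to 4 (log2 0.97, SE 0.14, edgeR adjusted p = 0.000407). Cyb561, whose protein passes electrons across the granule membrane to renew ascorbate, rose by log2 0.43 (edgeR adjusted p = 0.046). That call was lost without any 1 library other than WT 4 (0.0591 to 0.184), with the acinar covariate (0.103) or without the 10 most abundant genes (0.0503), with a range of adjusted p over the alternatives, DESeq2 and limma-voom included, of 0.00698 to 0.184. Slc31a2, a copper transporter gene, fell to 20.7 ± 2.79 CPM in the libraries labelled KO, against 31.6 ± 3.25 CPM in WT (log2 −0.61, edgeR adjusted p = 0.012), and missed the threshold under scaling by library size alone (adjusted p = 0.128; 0.00155 to 0.128 over the alternatives).

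**Figure D2:**
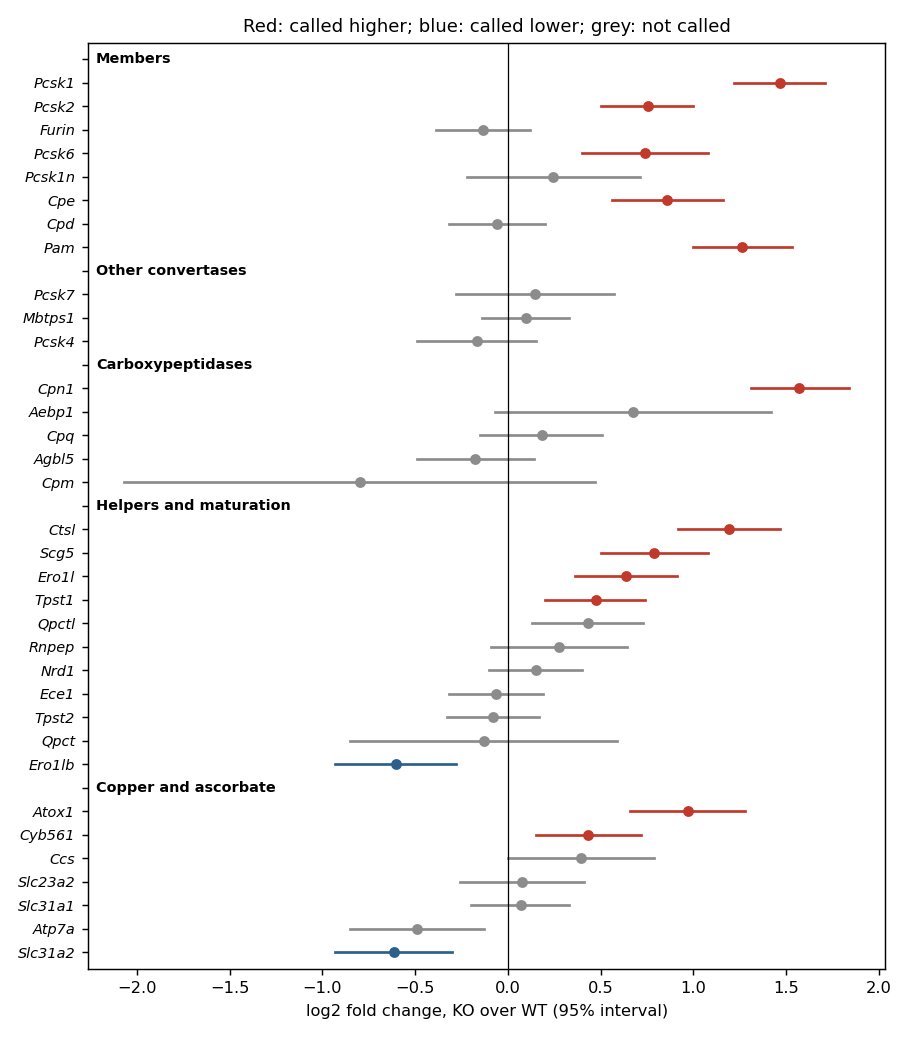
Log2 fold change (x axis) with its 95% interval, libraries labelled KO over WT, for the 8 members and related genes. The related genes are the further convertases described here and the tested genes of 3 lists: carboxypeptidases, helpers and maturation, and copper and ascorbate. Each had at least 2 CPM on average in a group, which leaves out Pcsk5, and some are not named in the text. Red marks genes called higher, blue genes called lower and grey genes not called. Pcsk1 (1.47), Pam (1.27) and Cpn1 (1.57) lie far right, and Furin and Cpd lie near 0 with signs that flip under scaling by library size alone.

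Ratios of counts within a library do not depend on how libraries are scaled, so they compare the balance among the members. Counts of Pcsk1 per count of Pcsk2 were 0.104, 0.093 and 0.113 in labelled KO 1 to 3 and 0.0625, 0.0708, 0.0602 and 0.0593 in WT 1 to 4. This ratio was 1.64-fold higher in the libraries labelled KO, with no overlap. Counts of Pcsk1 per count of its inhibitor gene Pcsk1n were 0.25, 0.219 and 0.218 in labelled KO 1 to 3, against 0.143, 0.129, 0.0824 and 0.0705 in WT 1 to 4, 2.25-fold higher. Counts of Furin per count of Pcsk1 were 0.127, 0.142 and 0.104 in labelled KO 1 to 3, against 0.351, 0.412, 0.351 and 0.378 in WT 1 to 4.

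The smallest difference among the 7 ratios computed was that between Pcsk2 and its chaperone gene Scg5. Counts of Pcsk2 per count of Scg5 were 4.4, 5.61 and 4.25 in labelled KO 1 to 3 and 4.97, 5.13, 4.92 and 4.35 in WT 1 to 4 (log2 difference −0.03, exact permutation p = 0.743), and the difference changed sign without labelled KO 1 (0.015) or labelled KO 3 (0.041). Counts of Cpe per count of Cpd were 75.8, 51.1 and 66.1 in labelled KO 1 to 3 and 33.9, 32.3, 33 and 36.7 in WT 1 to 4. Counts of Pam per count of Cpe were 0.261, 0.325 and 0.224 in labelled KO 1 to 3 and 0.195, 0.203, 0.209 and 0.197 in WT 1 to 4, a small shift of log2 0.41 (0.27 without labelled KO 2).

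The largest difference among the 7 ratios was that of Cpe to insulin RNA. Counts of Cpe per count of Ins1 and Ins2 together were 0.0492, 0.0283 and 0.0238 in labelled KO 1 to 3 and 0.00818, 0.00809, 0.00498 and 0.00448 in WT 1 to 4, 5.18-fold higher. Insulin took 11.2%, 14.3% and 19.8% of all counts in labelled KO 1 to 3 and 35.2%, 32.7%, 39.5% and 42.1% in WT 1 to 4. The 8 members together took 1.9%, 1.82% and 1.9% of the counts outside the insulin genes in labelled KO 1 to 3 and 1.37%, 1.32%, 1.38% and 1.37% in WT 1 to 4. Except for Pcsk2 over Scg5, each of the 7 ratios had no overlap between groups and a 2-sided exact permutation p of 0.0571, the smallest that 3 against 4 libraries allow, or 0.0666 after Benjamini-Hochberg adjustment over the 7, so none could pass 0.05. The ratios restate differences between the fold changes of the genes they pair and are not separate support for them. The share of other gene pairs without overlap was not computed.

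**Figure D3:**
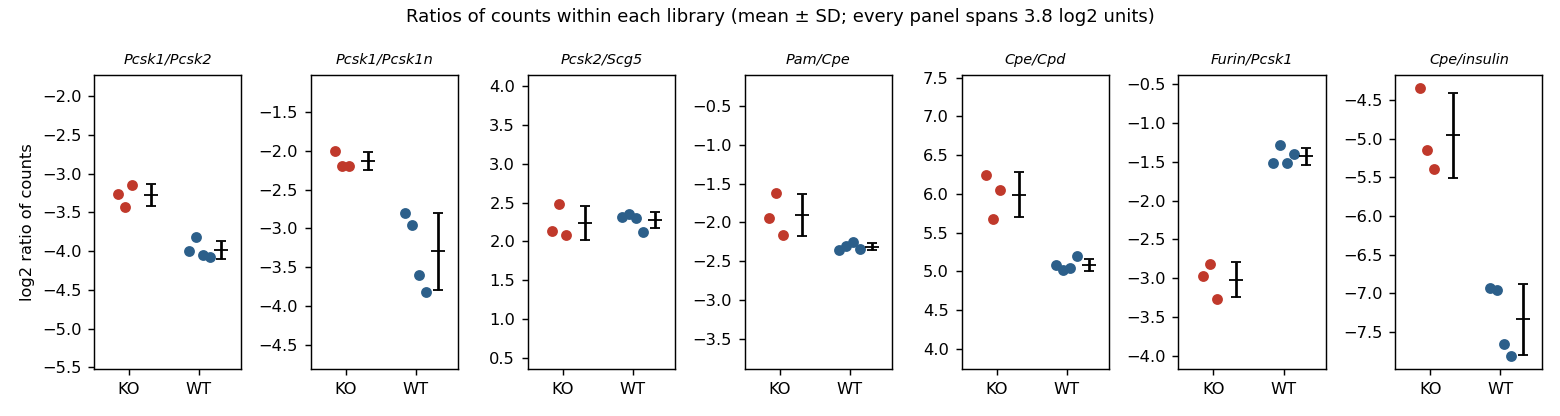
Log2 ratio of the counts of 2 genes within each library (y axis), with libraries labelled KO left of WT, points for libraries and bars for mean ± SD (n = 3 and n = 4). Every panel spans the same number of log2 units. The groups are apart in 6 of the 7 ratios and overlap for Pcsk2 over Scg5.

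The precursors that these enzymes process moved both ways. Of 30 listed precursor genes 28 were tested, of which 14 rose, 5 fell and 9 did not pass, with a median log2 fold change of 1.06. Of those tested 67.9% were called, against 14.0% of all tested genes. The 5 with the smallest p-values all rose: Vgf and Chgb, granule proteins cut into peptides (log2 4.13 and 2.62), the granin Scg3 (1.82), and the hormone genes Cck and Gast (9.60 and 5.27), each at an edgeR adjusted p below that of Pcsk1. Cck had 163.9, 88.9 and 120.9 CPM in labelled KO 1 to 3, against 0.1742, 0.09724, 0 and 0.3829 CPM in WT 1 to 4. Among precursors singled out after their values were seen, Iapp, the amylin gene, stood at 87080, 72040 and 98530 CPM in labelled KO 1 to 3, against 22930, 20480, 24390 and 28170 CPM in WT 1 to 4 (log2 1.84). Pdyn, the prodynorphin gene, stood at 1942, 1475 and 1277 CPM in labelled KO 1 to 3, against 21.35, 7.371, 16.62 and 18.76 CPM in WT 1 to 4 (log2 6.62). The following genes were also chosen after their values were seen. The 5 that fell were Ins1, Ins2, Ppy, Pyy and Chga. Ppy and Pyy (log2 −3.73 and −1.43) yield amidated peptides, as do Iapp, Npy (log2 2.03), Cck and Gast. The 2 largest non-beta hormone genes did not pass, with Gcg at log2 −0.32 (edgeR adjusted p = 0.343) and Sst at 0.12 (0.677). Sst was called higher under scaling by library size alone (log2 0.32, edgeR adjusted p = 0.0416).

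**Figure D4:**
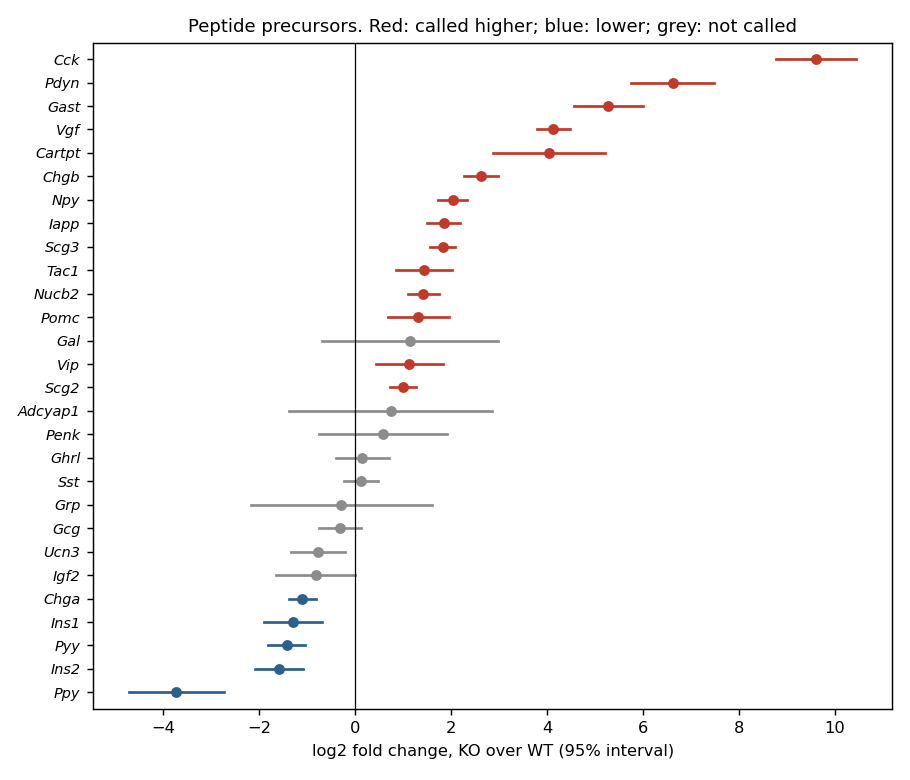
Log2 fold change (x axis) with its 95% interval, libraries labelled KO over WT, of the 28 tested peptide precursor genes in order of size. Red marks the 14 called higher, blue the 5 called lower and grey the 9 not called, from Cck at 9.60 to Ppy at −3.73.

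Of 17 precursors cut by convertases of the constitutive pathway 5 rose, 1 fell and 11 did not pass, with a median log2 fold change of 0.14. The share called was 35.3%, against 14.0% of all tested genes. Sorl1, a sorting receptor gene, stood at 177.2, 163.6 and 140.5 CPM in labelled KO 1 to 3, against 24.07, 17.1, 19.18 and 20.63 CPM in WT 1 to 4 (log2 2.99, edgeR adjusted p = 4.25e-08). Atp6ap1, a proton pump accessory gene (log2 0.70, edgeR adjusted p = 0.000797), Met (log2 0.82, edgeR adjusted p = 0.0145) and Lrp1 (log2 0.63, edgeR adjusted p = 0.0304) also rose, the last 2 being receptor genes. Bdnf, a neurotrophin gene near 1 CPM in WT, rose as well (log2 1.62, edgeR adjusted p = 0.034), a call lost without any 1 library other than labelled KO 1 (0.0517 to 0.147), with the replicate block (0.0897) and with the acinar covariate (0.181; 0.00548 to 0.181 over the alternatives). Igf1r, an insulin-like growth factor receptor gene, fell by 0.68 on the log2 scale (edgeR adjusted p = 0.00476), and its p was 0.0503 under scaling by library size alone (0.000191 to 0.0503 over the alternatives). Met lost its call without labelled KO 3 (0.0887) or WT 3 (0.0517) and with the acinar covariate (0.0623). Lrp1 lost it without labelled KO 1 (0.157), WT 1 (0.0678), WT 3 (0.0855) or WT 4 (0.0644) and with the acinar covariate (0.0732). Over the alternatives, DESeq2 and limma-voom included, the adjusted p ran from 0.00304 to 0.0887 for Met and from 0.0116 to 0.157 for Lrp1.

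Of 9 proteases that clear peptides 8 were tested, of which 3 rose, 2 fell and 3 did not pass. The share called was 62.5%, against 14.0% of all tested genes. Anpep, aminopeptidase N, fell to 47.4 ± 4.17 CPM in the libraries labelled KO, against 114.2 ± 15.2 CPM in WT (log2 −1.27, edgeR adjusted p = 2.07e-05). Enpep, aminopeptidase A, rose to 79.9 ± 28.7 CPM, against 19.8 ± 9.15 CPM in WT (log2 2.01, edgeR adjusted p = 0.0173), a call lost without WT 2 (0.063; 9.84e-07 to 0.063 over the alternatives). Npepps, a puromycin-sensitive aminopeptidase gene, fell (log2 −0.47, edgeR adjusted p = 0.0187), but not without labelled KO 1 (0.0817) or under scaling by library size alone (0.209; 0.00359 to 0.209 over the alternatives). Dpp4, which inactivates incretin hormones (log2 0.48, edgeR adjusted p = 0.0485), and Prcp, a prolylcarboxypeptidase gene (log2 0.81, edgeR adjusted p = 0.0491), lay just under the threshold. Dpp4 kept its call in 9 of 17 alternatives and Prcp in 4 of 17, with adjusted p of 0.0127 to 0.231 and 0.0191 to 0.196, DESeq2 and limma-voom included. Dpp4 lost it without labelled KO 1 or 3 or WT 2, 3 or 4. It also lost it with RLE scaling (0.0503), with limma-voom (0.0552) and without the 10 most abundant genes (0.0524). Prcp lost its call without any 1 of the 7 libraries and with the replicate block (0.0671). It also lost it with RLE scaling (0.0501), no filter on low counts (0.0605), the acinar covariate (0.196) or the Xist covariate (0.051), and without the 10 most abundant genes (0.0521).

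Genes with a profile most like a called member were found by the root mean square difference of centred log2 CPM over the 7 libraries. The nearest to Pcsk1 were Ambp (0.0659), Glb1 (0.0961) and Lrpap1 (0.121), and to Pcsk2 they were Amph (0.0255), Reep5 (0.0383) and Ctnnd2 (0.049). For Pam they were Il3ra (0.0553), Tmtc1 (0.0838) and Iqsec3 (0.0891), for Cpe Gucy1a3 (0.0775), Tyw1 (0.0938) and Sdf4 (0.0961), and for Pcsk6 Ppp4r1l-ps (0.0602), Ppib (0.0732) and Tspan33 (0.085). The 7 libraries share the same group difference, so the values describe likeness in these libraries alone.

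Within 50 kb of the 5′ end of their gene span, 7 of the 8 members had at least 1 Glis3 peak, a share near the 91.1% of all tested genes. Pcsk1 was the member with none. Its nearest peaks lay 56 kb upstream (chr13:75033853-75034052) and 73.7 kb downstream of the 5′ end (chr13:75163559-75163758), beyond the 3′ end of the gene, and for both Pcsk1 had the nearest gene start in the table. The second lay within 50 kb of the gene span, and by that measure all 8 members had a peak, as did 93.7% of tested genes. Peaks within 50 kb of the 5′ ends numbered 19 in all, of which 12 had the member as the nearest gene start and 7 lay nearer to the start of another gene.

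Peaks lay at the start of 6 members. Pam had 1 with its midpoint 25 bp upstream of the 5′ end (chr1:98095572-98095771), Cpd 1 at 62 bp downstream (chr11:76846847-76847046), Pcsk1n 1 at 214 bp upstream (chrX:7919509-7919708), Pcsk2 1 at 331 bp upstream (chr2:143545703-143545902) and Cpe 1 at 435 bp downstream (chr8:64692575-64692774). Pcsk6 had 2, at 347 bp upstream and 522 bp downstream (chr7:65861690-65861889 and chr7:65862559-65862758). Within 1 kb, a window chosen after the data were seen, 71.2% of all tested genes had a peak, and 85% of those with at least 10 CPM in WT. Called and uncalled members were both among the 6, with Pcsk2, Pcsk6, Cpe and Pam called and Pcsk1n and Cpd not.

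Furin had its nearest peaks 3.54 kb and 5.18 kb downstream of the 5′ end, inside the gene (chr7:80401794-80401993 and chr7:80400153-80400352). The first of these lay 919 bp downstream of a second RefSeq start of Furin. Peaks inside the gene span numbered 6 in Cpe, 4 each in Pcsk2 and Pam, 2 each in Furin and Pcsk6 and 1 in Cpd. Of the 5 peaks near Pcsk1n, 4 lay within 0.2 kb of the start of a neighbour (Pim2, Slc35a2, Timm17b and Hdac6). The peak 40.5 kb upstream of Cpe lay 28 bp from the start of Msmo1, and 2 near Furin lay closest to Man2a2.

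**Figure D5:**
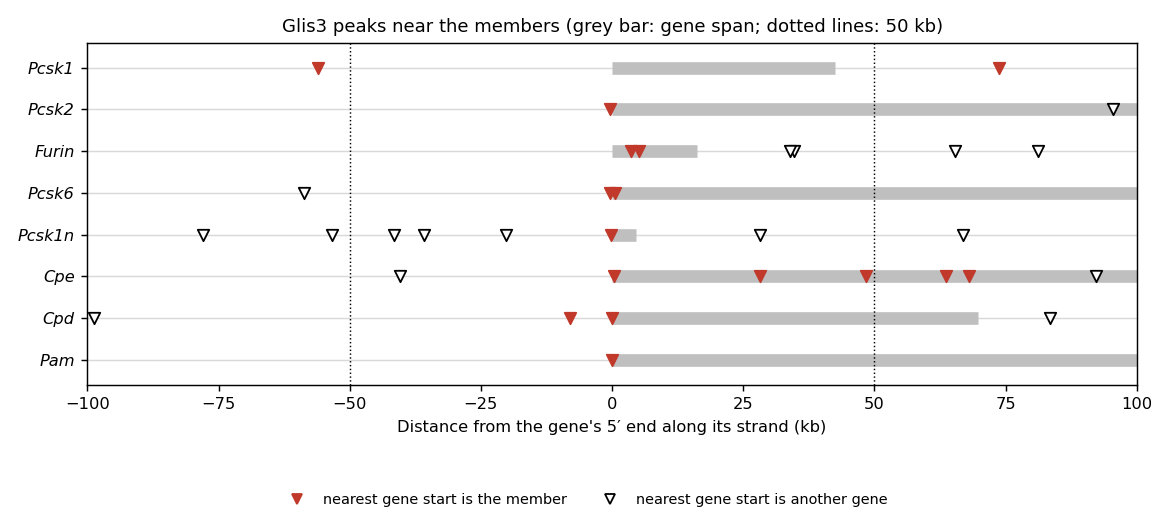
Glis3 peaks (triangles) by distance of their midpoint from the 5′ end of each member along its strand (x axis, kb), with the gene span as a grey bar and 50 kb as dotted lines. Filled triangles have the member as the nearest gene start and open ones another gene. Pcsk1 has no peak between the dotted lines.

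Motifs were searched in the 9 RefSeq promoter windows of 7 members, on both strands. TGACGTC and its reverse complement were found in Pcsk1, overlapping each other in 8 letters that begin 78 bases before its RefSeq start. Of all 32851 windows 3.21% held this motif. TGGGGGG, a G-rich run of the type Glis proteins bind, was in the Pcsk1n window 28 bases before the start and in 1 Furin window, with 8.47% of all windows holding it. GGGGGGT was in the Pcsk6 window (5.17% of all), and TGTTTAC, a forkhead motif, in Pcsk1 and 1 Furin window (3.65%). CAGATGG, an E-box, was in none (5.3%). No match lay wholly under a peak, but the windows hold only part of the peaks, and the remaining peak sequence was not analysed here.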

How the data were processed

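RNA was sequenced from islets in 3 libraries labelled KO and 4 labelled WT, and the whole-number counts per gene deposited by the authors were not normalised. Per the submitters' processing notes, which give no roles, tools included STAR 2.5, featureCounts 1.5.0-p1 and DESeq2. Those notes also list HOMER 4.9.1, cutadapt 1.2.1, bedtools 2.24.0, Picard 1.110 and Bowtie 1.2, with build mm10. Strand setting, annotation and use of the input library are not given in the sources used here. Peaks came from the authors as 200 bp intervals with no score.

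Genes were kept by filterByExpr, scaled by TMM and tested with edgeR 4.0.16 (R 4.3.3), fitted to all 14529 kept genes. The SE is the absolute log2 fold change over the square root of F. No 2 libraries of a group were copies (chi-square per degree of freedom 23.4 to 95.4). Replicate numbers are shared between groups, and the deviations of same-numbered libraries correlated at 0.173, 0.117 and 0.117 over genes, so the fit with that block is printed where it changes a call. Libraries with different numbers correlated at −0.183 to 0.157, the highest being labelled KO 3 with WT 4, and libraries 1 and 2 of both groups had Xist reads while 3 and 4 had not. Ratios had 0.5 counts added to each gene and an exact permutation test (scipy 1.17.1). Distances run from a gene's 5′ end to a peak's midpoint. Distances and motifs carry no test.

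Members and gene lists were chosen with earlier results of these data known. Named genes are the members, Glis3, up to 5 called genes per list by p (all of a list of 5) and the 3 nearest profiles, and others are marked as chosen later. A result of the list of other convertases is not reported here. Peak sequences could be searched only inside RefSeq promoter windows; Cpe had none. Counts carry no molecular identifiers, and depth limits genes near 1 CPM.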

Additional observations from a re-analysis of the deposited data

Results flagged for a closer look

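In 4 of 49 genes, 1 WT library stood far from the other 3, with a gap to its neighbour, as a share of the group's range, above Dixon's critical value. Chance flags about 5% of groups, and no member and none of the 7 ratios was among them. For Atp6ap1 the share was 0.951, with 250.6 CPM in WT 4 against 230.1 to 231.1 CPM in the others. For Slc31a2 it was 0.943, with 36.42 CPM in WT 4 against 29.75 to 30.13 CPM. For Prcp it was 0.867 and for Pcsk5 0.837, both by WT 3, and Pcsk5 was near 1 CPM in each group.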

How the results depend on the processing

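Each alternative was fitted for the 8 members, 135 fits in all, of which 130 kept the direction and the side of the threshold. Pcsk1, Pcsk2, Pcsk6, Cpe and Pam were called in every fit that held them, with 5 members called without any 1 library, 4 where Pcsk2 was left out among the 10 most abundant genes, and 6 with the replicate block or library size alone, where Pcsk1n passed (log2 0.47 and 0.45). The replicate block changed no other member's call and gave 2188 called genes, against 2031 without it. In that fit WT 4, the only library with its number, did not bear on the group difference. Cpd reversed under library size alone (0.097) and without WT 1 (0.012), Furin under library size alone (0.036), and Pcsk5 (−0.26) and Pcsk7 (−0.0089) without labelled KO 2. Without 1 library the log2 fold change ran from −0.13 to 0.012 for Cpd, −0.26 to 1.07 for Pcsk5 and −0.0089 to 0.26 for Pcsk7. Library size alone moved the median log2 fold change of all genes to 0.175, from which the members' values there must be read, and split the calls into 1854 higher and 324 lower, against 1268 and 763. Genes called lower were 452 with the acinar covariate, and at an adjusted p under 0.01 there were 1067 called, 731 higher and 336 lower. Without 1 library the calls ran from 1475 to 1850, with 934 to 1142 higher and 541 to 825 lower. The ratio of Pcsk2 to Scg5 ran from −0.16 to 0.041 without 1 library (log2). Peaks of the members numbered 7 within 1 kb, 10 within 10 kb and 33 within 100 kb of the 5′ end and 36 within 50 kb of the gene span, against 19 within 50 kb of the 5′ end. The cause was not tested for these changes.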
